A study of Arabidopsis thaliana with 96 samples.

Results

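Chromatin accessibility was examined at 10 genes of the *Arabidopsis thaliana* circadian clock, CCA1, LHY, TOC1, PRR5, PRR7, PRR9, ELF3, ELF4, LUX and GI, out of 27444 nuclear protein-coding genes. The genes were chosen by locus, and the summits of ATAC-seq peaks from 1500 bp upstream of each gene start to 500 bp past its end were collected. ATAC-seq marks DNA that the Tn5 transposase can reach in nuclei, and a summit is the point of a peak where most tags pile up. The series holds 96 peak lists from leaf, 4 for each of 23 natural accessions and 4 for untreated Col-0. All plants grew at 22 degrees C under 16 h of light and 8 h of dark, and the hour of harvest is not given in the sources used here. The lists of Ad-0, En-2, Hi, Mt and Og carry the names of the reference chromosomes, and those of Col-0, the reference accession, plain chromosome names, read here as lying within 150 bp of reference positions. These 24 lists from 6 accessions were compared at the same loci. The labels of these accessions name no transgene and no treatment. The untreated Col-0 lists, whose headers name naked DNA, served as background. Nuclei were sorted from bulk leaf tissue, so fewer cells with an open locus and less access per cell cannot be told apart. The lists hold no transcript levels, so the leaf label was not checked against expression markers.

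The plant clock is a loop of repressors that follow each other through the day. CCA1 and LHY are MYB transcription factors made around dawn that repress evening genes, in many cases through a promoter motif called the evening element. The pseudo-response regulators PRR9, PRR7 and PRR5 appear in sequence through the day and repress CCA1 and LHY, and TOC1, a member of the same family, peaks in the evening. ELF3, ELF4 and the DNA-binding protein LUX form the evening complex, which represses PRR9 and other genes at night. GI is a large evening protein that works with the blue-light receptor ZTL in the turnover of TOC1 and links the clock to flowering.

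The sequences under the summits that recurred in every file are shown for the loci on which the results turn. They are given 5′ to 3′ on the strand of the gene, from the RefSeq TAIR10.1 reference, as 300 bp centred on the median summit of the 5 accessions with reference names. The TOC1 stretch stops at the gene start. Capitals mark exact matches on either strand to the evening element AAAATATCT, the CCA1-binding site AAAAATCT, the G-box CACGTG, the LUX-binding sites GATTCG and GATACG and the TCP site GGNCCCAC. The CCA1 stretch lies at chr2:19245241-19245540 (plus strand), the LHY stretch at chr1:37911-38210 (minus strand) and the TOC1 stretch at chr5:24674800-24674962 (plus strand). The near and far PRR5 stretches lie at chr5:8358658-8358957 and chr5:8359759-8360058 (minus strand). PRR9 is shown at chr2:19232293-19232592, LUX at chr3:17182616-17182915 and GI at chr1:8060646-8060945, all on the plus strand.
CCA1: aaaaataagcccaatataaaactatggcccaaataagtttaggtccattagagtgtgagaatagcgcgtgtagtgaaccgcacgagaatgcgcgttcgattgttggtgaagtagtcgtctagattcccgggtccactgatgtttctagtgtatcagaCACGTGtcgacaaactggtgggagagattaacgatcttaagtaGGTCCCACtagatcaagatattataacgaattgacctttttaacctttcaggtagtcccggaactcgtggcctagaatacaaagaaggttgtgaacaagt
LHY: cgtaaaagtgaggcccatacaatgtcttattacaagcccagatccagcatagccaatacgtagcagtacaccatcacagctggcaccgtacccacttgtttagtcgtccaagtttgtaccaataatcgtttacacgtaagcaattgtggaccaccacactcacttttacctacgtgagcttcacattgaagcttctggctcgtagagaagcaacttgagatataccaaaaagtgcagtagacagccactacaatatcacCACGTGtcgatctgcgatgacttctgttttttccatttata
TOC1: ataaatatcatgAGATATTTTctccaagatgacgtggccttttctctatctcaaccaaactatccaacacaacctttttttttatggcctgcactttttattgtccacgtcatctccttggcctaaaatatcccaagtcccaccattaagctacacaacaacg
PRR5 near: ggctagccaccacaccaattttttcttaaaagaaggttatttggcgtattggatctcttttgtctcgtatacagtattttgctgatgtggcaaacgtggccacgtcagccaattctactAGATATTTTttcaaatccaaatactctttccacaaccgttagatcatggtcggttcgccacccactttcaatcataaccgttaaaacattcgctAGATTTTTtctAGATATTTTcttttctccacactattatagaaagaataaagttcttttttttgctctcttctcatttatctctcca
PRR5 far: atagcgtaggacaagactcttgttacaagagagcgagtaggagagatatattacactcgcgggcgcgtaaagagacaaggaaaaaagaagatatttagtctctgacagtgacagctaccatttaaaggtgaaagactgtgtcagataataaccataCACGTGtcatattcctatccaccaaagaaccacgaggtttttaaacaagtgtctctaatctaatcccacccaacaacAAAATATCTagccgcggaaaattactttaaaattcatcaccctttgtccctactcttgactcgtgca
PRR9: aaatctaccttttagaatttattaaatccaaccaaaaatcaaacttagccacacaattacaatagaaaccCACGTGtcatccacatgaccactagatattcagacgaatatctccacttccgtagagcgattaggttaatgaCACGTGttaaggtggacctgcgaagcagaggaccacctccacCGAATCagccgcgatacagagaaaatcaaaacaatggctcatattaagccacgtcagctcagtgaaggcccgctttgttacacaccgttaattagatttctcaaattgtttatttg
LUX: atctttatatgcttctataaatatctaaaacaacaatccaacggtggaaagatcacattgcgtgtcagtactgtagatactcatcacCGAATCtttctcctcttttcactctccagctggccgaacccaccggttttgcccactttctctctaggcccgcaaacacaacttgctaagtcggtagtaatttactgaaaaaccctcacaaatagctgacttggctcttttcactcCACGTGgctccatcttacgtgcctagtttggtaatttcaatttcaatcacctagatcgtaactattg
GI: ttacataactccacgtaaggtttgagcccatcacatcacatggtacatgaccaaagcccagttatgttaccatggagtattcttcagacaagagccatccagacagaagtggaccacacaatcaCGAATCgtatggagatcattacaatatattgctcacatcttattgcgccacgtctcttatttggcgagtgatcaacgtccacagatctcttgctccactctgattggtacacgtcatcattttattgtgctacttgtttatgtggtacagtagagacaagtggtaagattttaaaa

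The CCA1 stretch held a G-box 10 bp from the summit and a TCP site 54 bp from it. CHE, a TCP factor, is known to bind the CCA1 promoter. The region upstream of PRR5 held the evening element at both summits, with 2 copies and a CCA1-binding site at the near summit, and 1 copy beside a G-box at the far summit. The TOC1 promoter held 1 evening element, 151 bp upstream of the start and near the edge of the window. PRR9 held 2 G-boxes, one of them 5 bp from the summit, and a LUX-binding site, and LUX itself held a G-box and a LUX-binding site. The window at GI, the highest of the clock loci in 5 of 6 accessions, held only a LUX-binding site of these motifs.

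The 24 lists contained 1463227 to 4754108 tags and 5564 to 21327 nuclear peaks. The 4 files of an accession differed by no more than sampling noise. A dispersion index that is 1 for random draws from one library was 0.815 to 0.923 over 36 pairs of files of the same accession and 2.51 to 7.83 over 15 pairs of different accessions. The files were therefore treated as 1 sample per accession, the SD over files describes counting spread, and differences between accessions are described without a test. The median summit at 2121 positions shared by all 24 lists was higher in En-2 and Mt, at 22.9 and 22.6 pileup per 1000000 tags. It was 12.6 in Ad-0, 12.9 in Hi, 17.9 in Og and 17.8 in Col-0. The input names in the headers of Hi, Mt, Og and untreated Col-0 share a number that those of Ad-0, En-2 and Col-0 lack. What the number marks is not stated, and accession and number cannot be told apart.

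Of the clock genes, 9 of 10 had a summit in their window in all 24 files, and ELF3 was the exception. Of all protein-coding genes, 10% had one in all 24 files. In Ad-0, 9 of 10 clock genes had a summit in all 4 files, against 16.3% of all genes. The same 9 genes had one in Hi (15.7% of all genes), En-2 (32.3%), Og (40.7%) and Col-0 (44.7%). In Mt all 10 did, against 54.7% of all genes. None of the 10 had a peak in any file of untreated Col-0, where 0.441% of all genes had one in all 4 files. The lowest pileup listed there was 1.90 to 2.85 per 1000000 tags, under every clock gene summit described here, but these lists had only 580 to 754 nuclear peaks.

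The windows of the clock genes were longer than most, with a median of 5753 bp against 4078 bp over all genes. With a fixed window from 1000 bp upstream to 200 bp past the start, the counts of clock genes stayed at 10 in Mt and 9 in each other accession. The share of all genes fell to 10.7% in Ad-0, 22.0% in En-2, 10.6% in Hi, 39.2% in Mt, 28.1% in Og and 31.2% in Col-0. With every list shortened to its 5564 best peaks by q-value, 9 clock genes were left in En-2, Og and Col-0, where 17.0%, 17.2% and 19.3% of all genes were called. Under this rule 8 were left in Ad-0 and Hi, without TOC1 and ELF3, against 14.8% and 15.3% of all genes. In Mt 8 were also left, without ELF3 and ELF4, against 17.9% of all genes. ELF4, ELF3 and TOC1 are thus the loci with the weakest summits in at least some accessions.

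**Figure D1:**
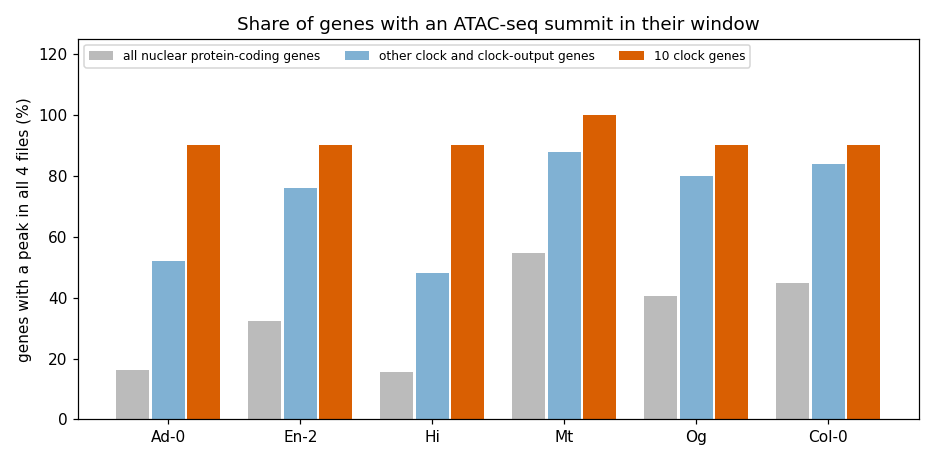
Bars give the percentage of genes with a summit in their window in all 4 files of each accession, for all 27444 nuclear protein-coding genes (grey), 25 other clock and clock-output genes (blue) and the 10 clock genes (orange). The clock genes reach 9 of 10 in each accession other than Mt, where they reach 10 of 10, while the grey bars range from 15.7% in Hi to 54.7% in Mt.

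The 303 peaks at the clock loci fell into 19 positions when summits within 150 bp of each other were chained, and 240 of these peaks lay at the 10 positions present in all 24 files. All of these 10 positions were upstream of the gene start, and 8 of them lay 13 to 306 bp from it. The exceptions were the far PRR5 position, 1362 bp upstream, and the GI position, 955 bp upstream. In the first file of each accession the highest summit lay within 500 bp upstream of the start for 6 or 7 of the clock genes with a peak, against 35.9% to 39.7% of all genes with a peak. The clock gene peaks were also wide. In Col-0, 8 of 9 were wider than the median over genes of 321 bp, and in Hi 6 of 9 were wider than the median of 295 bp.

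Both morning genes had their main summit close upstream of the start. At CCA1 (AT2G46830, chr2:19245591-19248915, plus strand) the median summit was 200 bp upstream, and the 24 summits spanned -280 to -89 bp from the start. At LHY (AT1G01060, chr1:33365-37871, minus strand) it was 189 bp upstream, with a span of -276 to -147 bp. A further weak position of LHY in its 3′ UTR, 4312 bp from the start, was present in 10 files and in all 4 of Mt only. Another, 4670 bp from the start and in 2 Mt files, lay 30 bp from the start of the neighbour PPa1 (AT1G01050), an annotated pyrophosphatase gene.

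Among the pseudo-response regulators, PRR9 (AT2G46790, chr2:19232607-19235179, plus strand) had its main summit 164 bp upstream and a weaker position 678 bp upstream in 14 files, 4 of 4 in En-2 and Mt. PRR7 (AT5G02810, chr5:637681-642030, minus strand) had a single position 306 bp upstream. This summit lay 64 bp from the tRNA gene AT5G02815, whose start was the nearest, and the divergent gene RHL2 (AT5G02820) starts 524 bp upstream of PRR7, so the peak cannot be assigned to PRR7 alone. PRR5 (AT5G24470, chr5:8356204-8358546, minus strand) had a near position 261 bp upstream and a far position 1362 bp upstream. The far summit lay 72 bp inside the divergent long noncoding RNA gene AT5G03755, so it cannot be assigned to PRR5 alone. TOC1 (AT5G61380, chr5:24674963-24678550, plus strand) had its summit at the start itself, between -134 and 72 bp. A weak TOC1 position 1096 bp upstream, in 8 files and in all 4 of Col-0 only, lay 210 bp from the start of AT5G61370.

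In the evening complex, LUX (AT3G46640, chr3:17183042-17186959, plus strand, PCL1 in RefSeq) had its main summit 276 bp upstream, 206 bp from the start of the divergent gene AT3G46630. That start was the nearest, so the peak cannot be assigned to LUX alone. Further weak positions lay 2220 and 2484 bp past the LUX start, the first in 11 files and the second in 3 files of Mt. Both lay past the end of the first LUX transcript model, and the second also lay inside AT3G46650, a gene on the opposite strand. ELF4 (AT2G40080, chr2:16734294-16734953, minus strand) had a single position 163 bp upstream. ELF3 (AT2G25930, chr2:11058944-11063324, plus strand) had no position in all files. Its strongest position, 921 bp upstream, was present in 4 files of Mt, 3 of En-2 and 1 each of Og and Col-0, and a position in its 5′ UTR, 83 bp past the start, was present in 3 files of Mt and 1 of Og. Neither was listed in Ad-0 or Hi. The GI summit (AT1G22770, chr1:8061751-8067790, plus strand) was the most sharply placed, between -961 and -942 bp in the 20 files with reference names. In Col-0 it lay between -911 and -883 bp. Around GI, within 1 Mb on each side, Col-0 summits as a whole were offset by a median of 62 bp from the nearest Ad-0 summits, in the same direction. Around LUX, where the Col-0 summits lay between -405 and -353 bp, the median offset was -115 bp. Around the 10 loci the offset of Col-0 ranged from -115 to 78 bp on the strand of the gene, and those of En-2, Hi, Mt and Og from -8 to 6 bp. The 5 accessions with reference names thus shared a coordinate frame at these loci, and the placement of the Col-0 summits at GI and LUX was of the size and direction of the offset around them.

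**Figure D2:**
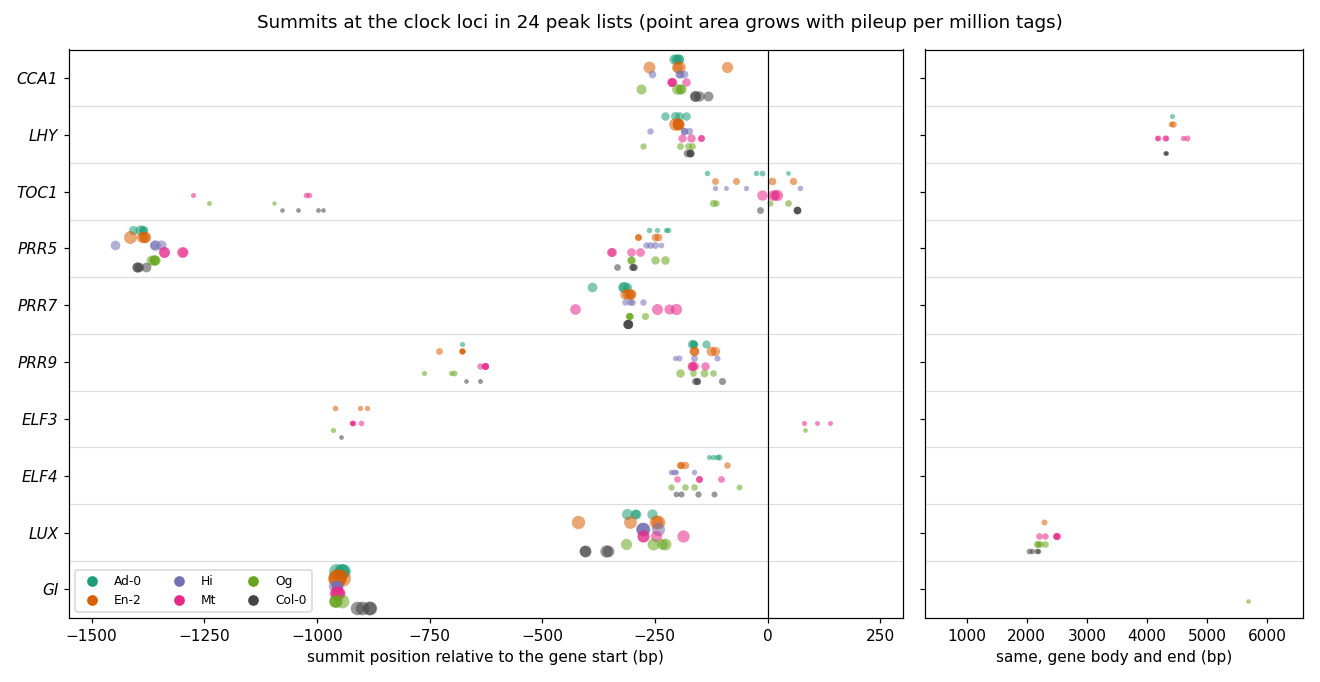
Each point is a summit in 1 of 24 lists, placed by its distance in bp from the gene start (line at 0) with upstream to the left, coloured by accession and sized by pileup per 1000000 tags. The left panel covers the promoter and the right panel the gene body and end on another scale, and 240 of 303 summits fall at the 10 upstream positions present in every list.

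GI had the highest summit of the clock loci in every accession other than Hi. Its mean pileup per 1000000 tags was 107 ± 9.54 in En-2 (SD, n = 4 files), 73.4 ± 2.05 in Ad-0, 62.6 ± 0.993 in Col-0, 61.7 ± 5.81 in Mt, 55.3 ± 6.64 in Og and 42.1 ± 3.86 in Hi. These levels lay at or above percentile 97.5 of genes with a peak in every accession. The counting intervals of Col-0 and Mt overlapped, as did those of Mt and Og, and the other neighbours in this order were apart. In En-2 the level was 1.70 times that in Col-0 (exact 95% interval 1.54 to 1.88), a log2 difference of 0.77 that was 0.15 by the authors' fold enrichment. Relative to the shared summits Ad-0 was the highest accession at GI.

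LUX stood next in height in the 5 other accessions and was the highest locus in Hi. The 4 Hi files gave 58.1, 58.7, 55.6 and 65.1 pileup per 1000000 tags at LUX, and 41.3, 42.2, 37.7 and 47.0 at GI. The file values of the 2 loci did not overlap in Hi. The mean at LUX was 60.7 ± 3.77 in En-2, 59.4 ± 4.07 in Hi, 47.4 ± 3.03 in Mt, 46.2 ± 3.01 in Col-0, 43.8 ± 4.43 in Og and 33.7 ± 4.73 in Ad-0. En-2 could not be separated from Hi by counting intervals, nor Mt from Col-0 or Col-0 from Og. The place of Ad-0 depended on the scale, since its log2 difference from Col-0 was -0.46 per tag, 0.05 relative to the shared summits and 0.54 by the authors' fold enrichment, where Ad-0 was the highest accession. In each accession LUX lay at or above percentile 96.9 of genes with a peak.

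ELF4, the small partner of ELF3 and LUX, had the lowest level of the 9 loci in En-2, Mt, Og and Col-0. Its mean was 14.8 ± 2.22 in En-2, 13.2 ± 0.730 in Mt, 11.2 ± 1.38 in Og, 9.69 ± 0.924 in Col-0, 7.83 ± 1.73 in Hi and 7.54 ± 1.89 in Ad-0. No 2 neighbours in this order were apart. Relative to the median of the shared summits its level was nearly flat, with the highest accession 1.19 times the lowest, at percentile 0.583 of the ranges of genes with a peak in all 24 files. ELF3, the scaffold of the complex, reached 8.97, 7.99, 7.76 and 5.65 in the 4 Mt files, at percentile 9.51 of genes with a peak in Mt. The value of 5.65 came from the 5′ UTR position and the others from the upstream position, which gave 4.52 in that file. The 3 En-2 files with an ELF3 peak gave 7.98, 7.34 and 6.76, and the fourth listed none.

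CCA1 and LHY were both highest in En-2 per tag, and the accessions below it came in different orders. At CCA1 the mean was 45.7 ± 5.92 in En-2, 35.3 ± 3.40 in Col-0, 33.5 ± 2.62 in Og, 32.6 ± 3.26 in Ad-0, 24.8 ± 1.88 in Mt and 18.8 ± 1.72 in Hi. The counting intervals of Col-0, Og and Ad-0 overlapped as neighbours, and so did those of Mt and Hi. The ratio of Mt to Hi was 1.32, and its exact interval (1.06 to 1.64) nevertheless lay above equality. Relative to the shared summits Ad-0 was highest at CCA1 and Mt lowest, and by the authors' fold enrichment Col-0 was highest and Mt lowest. At LHY the mean per tag was 46.8 ± 4.55 in En-2, 23.7 ± 1.71 in Ad-0, 17.9 ± 1.86 in Col-0, 17.6 ± 4.73 in Mt, 14.7 ± 2.47 in Hi and 12.8 ± 1.37 in Og. Here only En-2 and Ad-0 stood apart from the accession below them.

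The LHY files of En-2 gave 44.6, 45.8, 53.4 and 43.3, and those of Og 12.9, 10.9, 13.5 and 14.0. Every En-2 file lay above every file of the other accessions at LHY. Within the accessions that lack the shared header number, the En-2 level was 1.97 times that in Ad-0 (1.63 to 2.39) and 2.61 times that in Col-0 (2.22 to 3.07). These differences were smaller on other scales. Relative to the shared summits the LHY level was 2.04 in En-2, 1.89 in Ad-0 and 1.01 in Col-0, and by the authors' fold enrichment the log2 difference between En-2 and Col-0 was 0.55, against 1.38 per tag. Taken within the same files, which removes the depth, the pileup at LHY was 1.03 times that at CCA1 in En-2 (exact 95% interval 0.865 to 1.22), 0.508 times in Col-0 (0.444 to 0.580) and 0.383 times in Og (0.309 to 0.472). The ratio in En-2 lay apart from both others by these intervals. It was 0.725 in Ad-0 (0.597 to 0.880), 0.783 in Hi (0.618 to 0.991) and 0.710 in Mt (0.560 to 0.898), and these intervals overlapped that of En-2.

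TOC1 varied most per tag. The 4 files of Mt gave 35.9, 31.9, 42.7 and 37.3 pileup per 1000000 tags at TOC1. Those of Col-0 gave 20.0, 14.6, 15.6 and 13.7, and those of En-2 18.0, 14.4, 15.4 and 13.5. All Mt files lay above all others. The Og files gave 9.96, 13.0, 15.6 and 11.1, the Ad-0 files 7.57, 8.84, 7.12 and 4.65, and the Hi files 5.45, 7.80, 6.73 and 7.24. The mean in Mt, 36.9 ± 4.43, was 2.32 times that in Col-0 (1.96 to 2.75) and 5.44 times that in Hi (4.09 to 7.32). The log2 difference between Mt and Col-0 at TOC1 was 1.21 per tag and 0.58 by the authors' fold enrichment.

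The range of TOC1 over accessions, 5.43-fold, was wider than in 99.4% of the 2744 genes with a peak in all 24 files, whose median was 2.59-fold. Relative to the shared summits, which were also high in Mt, it was 3.10-fold, wider than in 94.8% of these genes, whose median was 1.80-fold. Genes without a listed summit in even 1 file are not in this set. The lowest TOC1 value, 4.65 in replicate 4 of Ad-0, lay near the lowest pileup listed in that file, 3.61. Mt was the highest accession at TOC1 with tags, fragment length, shared summits or the authors' fold enrichment as the scale, and Hi the lowest. The pileup at TOC1 was 1.49 times that at CCA1 in Mt (1.23 to 1.82), and 0.216 to 0.452 times in the other 5 accessions, where no upper bound exceeded 0.518. Og and Hi, which share the header number with Mt, gave 0.370 and 0.361. Mt also had the highest ratio to CCA1 at PRR7 (1.56), PRR9 (1.03), GI (2.49), ELF4 (0.534) and the near PRR5 summit (0.994). At GI the Mt interval (2.09 to 2.99) overlapped that of En-2 (2.03 to 2.71). At ELF4 it (0.411 to 0.690) overlapped that of Hi (0.309 to 0.554). Of the ratios to CCA1 that were taken, only those of LHY and LUX were highest in another accession. None was taken for the far PRR5 summit. Relative to the shared summits the level of CCA1 itself was lowest in Mt, at 1.09.

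Per tag the range of PRR7, 3.15-fold, came after those of TOC1 and LHY, which was 3.65-fold. The mean at PRR7 was 38.5 ± 3.83 in Mt, 35.9 ± 3.77 in En-2, 33.2 ± 5.93 in Ad-0, 26.7 ± 1.03 in Col-0, 14.2 ± 1.50 in Og and 12.2 ± 0.632 in Hi. Mt, En-2 and Ad-0 overlapped as neighbours, and so did Og and Hi. The 4 Og files gave 12.4, 14.7, 16.0 and 13.6 and the 4 Hi files 13.2, 11.9, 12.1 and 11.8, all below the lowest Col-0 file of 25.5. The Og level was 0.531 times the Col-0 level (0.436 to 0.643). Og was thus low at LHY and PRR7 and not at CCA1, where its ratio to Col-0 fell within overlapping intervals. Relative to the shared summits the PRR7 range was 3.34-fold, wider than in 96.4% of genes and than that of TOC1 on this scale. Here Ad-0 was highest at PRR7 and Og lowest, and by the authors' fold enrichment Ad-0 was highest and Hi lowest.

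PRR9 had a mean of 28.8 ± 1.65 in En-2, 25.5 ± 3.94 in Mt, 21.9 ± 3.80 in Ad-0, 16.7 ± 4.52 in Og, 14.5 ± 1.10 in Col-0 and 10.1 ± 3.20 in Hi. By counting intervals only Col-0 and Hi were apart as neighbours. The ratio of Ad-0 to Og was 1.31, and its exact interval (1.05 to 1.64) also lay above equality. Relative to the shared summits and by the authors' fold enrichment, Ad-0 was the highest accession at PRR9. Hi was the lowest accession per tag at PRR9, PRR7, CCA1, TOC1 and GI, and relative to the shared summits at PRR9 and TOC1 only, while at LUX it stood high on both scales. The pileup at LUX was 3.16 times that at CCA1 in Hi (2.65 to 3.78), 1.91 times in Mt (1.59 to 2.31) and 1.03 to 1.33 times in the other 4 accessions. Within the accessions that share the header number, the LUX level of Hi was 1.25 times that of Mt (1.09 to 1.44) and 1.36 times that of Og (1.19 to 1.54).

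At PRR5 the far summit was the higher of the 2 in all 6 accessions and so set the level of the locus. Its mean was 45.4 ± 7.56 in En-2, 37.2 ± 3.41 in Mt and 33.4 ± 1.17 in Og. It was 31.5 ± 5.81 in Hi, 31.1 ± 2.00 in Col-0 and 27.5 ± 5.70 in Ad-0. The counting intervals of all neighbours in this order overlapped. The ratio of En-2 to Mt was 1.22, and its exact interval (1.03 to 1.45) nevertheless lay above equality. The near summit varied more, from 24.6 ± 1.04 in Mt and 20.9 ± 2.00 in Og to 7.04 ± 1.04 in Ad-0. Within the same files the near summit had 0.660 times the pileup of the far summit in Mt (0.542 to 0.802) and 0.625 times in Og (0.522 to 0.748). The ratio was 0.439 in Col-0 (0.377 to 0.509), 0.371 in Hi (0.293 to 0.466), 0.341 in En-2 (0.266 to 0.433) and 0.256 in Ad-0 (0.187 to 0.345). The intervals of Mt and Og lay above those of the 4 other accessions.

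**Figure D3:**
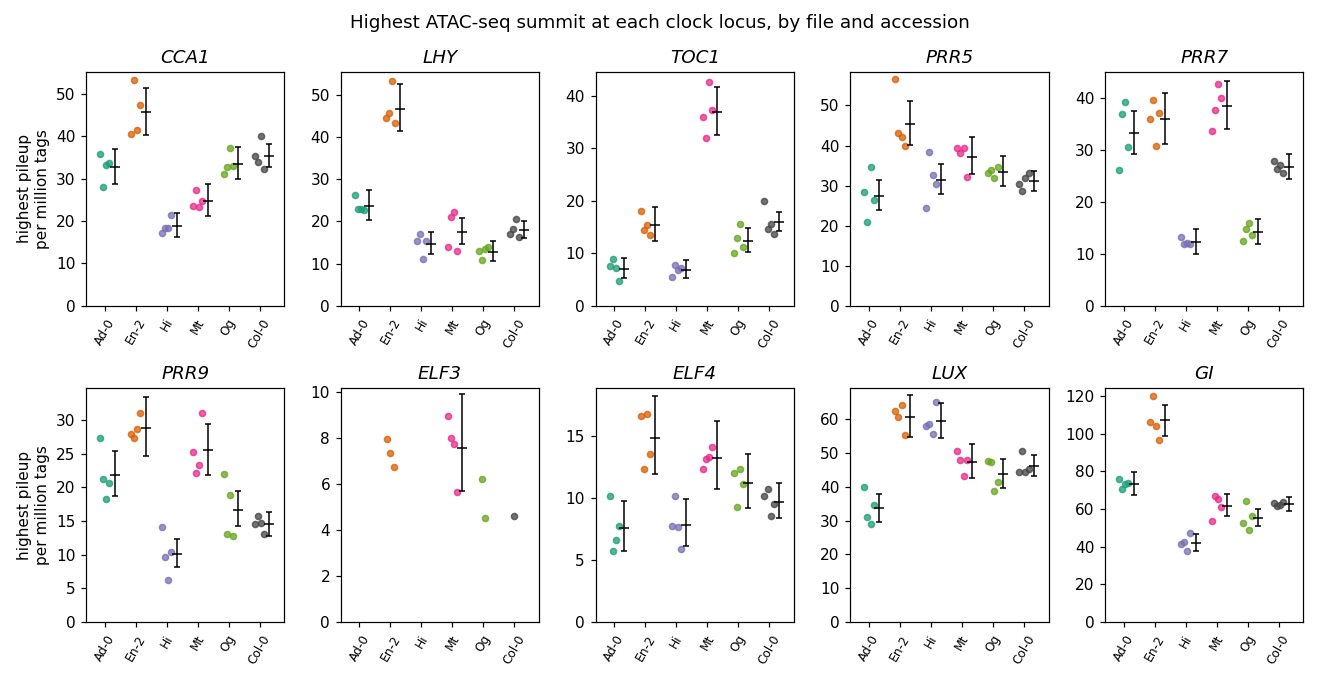
Points give the highest pileup per 1000000 tags at each clock locus in each of 4 files per accession, and the bars beside them the mean with its exact 95% Poisson interval where all 4 files list a peak (each panel has its own scale from 0). Mt stands above the other accessions at TOC1, with a mean of 36.9, En-2 at LHY with 46.8 and, on this scale, at GI with 107, while Hi is low at PRR7 with 12.2 and high at LUX with 59.4.

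**Figure D4:**
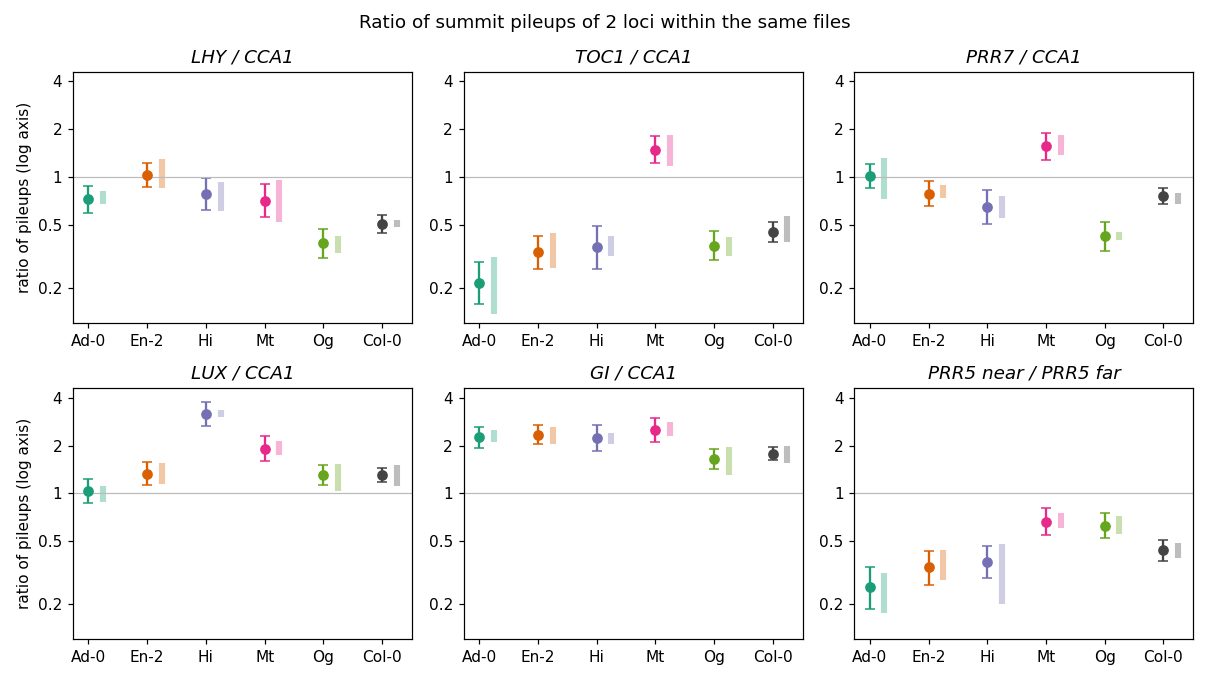
Points give the ratio of summed summit pileups of 2 loci within the files of each accession, with exact 95% binomial intervals, on a log axis, and the shaded bars span the 4 files. The TOC1 to CCA1 ratio is 1.49 in Mt and at most 0.452 elsewhere, LUX to CCA1 is 3.16 in Hi, and the near to far ratio of PRR5 is 0.660 in Mt and 0.625 in Og.

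En-2 had the highest level at 7 of the 9 loci with a peak in all files. It was also the accession with the highest median at the shared summits. Relative to those summits En-2 was the highest accession at 2 loci only, LHY and ELF4, and by the authors' fold enrichment at 4. LHY, TOC1 and ELF4 kept the same highest accession under all 4 scales. At ELF4, however, En-2 overlapped Mt per tag, and the range relative to the shared summits was only 1.19-fold.

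By motif, 6 of the 15 positions present in all 4 files of at least 1 accession held a G-box within their 300 bp. These were the main positions of CCA1, LHY, PRR7, PRR9 and LUX and the far position of PRR5. A G-box was found in 7.09% of all promoters, taken as the 300 bp upstream of each gene start, and in 16.3% of all 15047 positions near genes found in the same way. The evening element was found at 3 of the 15 positions, at TOC1 and at both PRR5 positions, against 2.79% of promoters and 2.47% of positions.

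The LUX-binding site GATTCG was found at 3 clock positions, PRR9, LUX and GI, against 9.34% of promoters and 11.7% of positions. The variant GATACG was also found at 3, the weak positions of TOC1 and ELF3 and that of ELF4, against 5.51% of promoters and 7.20% of positions. The CCA1-binding site at the near PRR5 position and the TCP site at CCA1 were single matches, in 7.94% and 1.18% of promoters and in 5.72% and 3.55% of positions. A match is a description of the reference sequence, not a sign of binding, and the sequences of the accessions at these sites were not examined.

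Of 25 other clock and clock-output genes, 10 had a summit in all 24 files. In all 4 files of an accession, 13 of 25 had one in Ad-0, 12 in Hi, 19 in En-2, 20 in Og, 21 in Col-0 and 22 in Mt. These counts, like those of the 10 clock genes, lay above the shares of all genes given for each accession. None of the 25 had one in all 4 files of untreated Col-0. The highest mean levels over 6 accessions were at TIC, a clock regulator (49.4), and at LNK3 (46.0) and LNK4 (43.4), relatives of the LNK1 and LNK2 coactivators of clock genes. The lowest among genes with a peak in all 24 files were at LNK2 (12.1), at GRP8, an RNA-binding protein under clock control (13.7), and at FKF1, a blue-light receptor of the ZTL family (15.0). ZTL had a peak in 3 files in all and in no accession in all 4.

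The genes whose 6 accession means lay nearest to those of CCA1 were sought among 2743 genes. PSI-P (AT2G46820), the neighbour whose window reaches the CCA1 promoter, had the same summit and a root mean square difference of 0 on the log2 scale. AT1G78790 and AT1G78800, which share a summit with each other on another chromosome, followed at 0.195. Their level was 54.8 in En-2, 35.3 in Col-0, 30.6 in Ad-0, 27.4 in Og, 25.0 in Mt and 15.8 in Hi. LHY, the closest relative of CCA1, was not among them.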

How the data were processed

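The 28 peak lists read here hold ATAC-seq peaks of leaf nuclei from 6 accessions and from untreated Col-0. The authors mapped reads with Bowtie 1.2.2. The labels give the TAIR10 build, while the methods state that reads went to the genome of each accession, so positions were checked: around the clock loci the summits of the 5 accessions with reference names coincided, with median offsets of -8 to 6 bp from Ad-0, and those of Col-0 were offset by -115 to 78 bp. MACS2 2.1.2 was run by the authors on every file, with no control library, all duplicates kept, a q-value cutoff of 0.05 per the file headers (the study's supplement states a looser one) and single tags of 36 bp extended to the estimated fragment length. The deposited signal is the pileup, which is the coverage by extended tags at a summit without scaling across files. The deposited fold enrichment is the authors' ratio of that pileup to a local background in the same library, and the deposited significance is the −log10 of the q-value. The fold enrichment and the q-value served only in alternatives.

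Pileups were divided by the tag total in the file header and multiplied by 1000000. These tags are all mapped tags, so organelle reads may lower every nuclear value of a file. The other 68 lists, from 17 accessions, give positions on sequences of the accession itself and were not used here. Gene models, symbols and sequences came from RefSeq, assembly TAIR10.1, and a gene window ran from 1500 bp upstream of the gene start to 500 bp past its end. The level of a gene is the highest summit in its window. Means and SD are over 4 files, and 95% intervals are exact Poisson intervals of summed pileups or exact binomial intervals of their ratios, which cover counting error only, since duplicates were kept. Pileups of pairs of files were compared at summits within 50 bp of each other with a summed pileup of at least 40. No test between accessions was made, because each accession has a single library in effect. Calculations used Python 3.11.15, NumPy 2.4.6, SciPy 1.17.1 and matplotlib 3.10.9, and the window counts were tested on simulated data.

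The genes, the list of other clock genes and the motifs were chosen with earlier results of these data known. Of the 26 other clock genes listed, 1 was left out because the RefSeq table gives it no symbol. The text names all 10 clock genes. Among other clock genes with a peak in all 24 files it names the 3 with the highest and the 3 with the lowest mean level. It also names any other clock gene that had a peak in all 4 files of no accession. It also names the 3 genes whose 6 accession means lay nearest to those of CCA1, and the gene nearest to a summit where that gene was not the clock gene itself.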

Additional observations from a re-analysis of the deposited data

Results flagged for a closer look

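Of 55 sets of 4 files at a clock locus, 3 held a file set apart from the others by Dixon's criterion for 4 values, and about 1 in 20 sets is so marked by chance. At LHY, replicate 1 of Ad-0 had 26.2 pileup per 1000000 tags against 22.7 to 22.9 in its other files. At PRR5, replicate 4 of Mt had 32.2 against 38.2 to 39.3. At LUX, replicate 2 of Col-0 had 50.6 against 44.3 to 45.2.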

How the results depend on the processing

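No paired analysis was possible because the results come from no test and the files of an accession differ by no more than sampling noise. The counts of clock loci with a peak stayed between 7 and 10 under every alternative, and the lowest, 7 in Ad-0, En-2 and Hi, came from summits nearer to the clock gene than to the start of another gene. The number of loci highest in En-2, 7, was 2 relative to the shared summits and 4 by the authors' fold enrichment. The other clock genes with a peak in Ad-0, 13, rose to 20 when a peak in at least 1 file sufficed. The evening element was at 3 positions, and its shorter core AATATCT, an alternative chosen after seeing the data, at 8, while the core was in 11.8% of promoters and 9.90% of positions near genes. Summit positions numbered 14 to 16 under other chaining distances and with each replicate left out. Of 45 levels set against Col-0, 26 had counting intervals apart from it. Among these the direction turned for CCA1 in En-2 (log2 -0.26) and PRR7 in Mt (-0.05) by the fold enrichment, and for LUX in Ad-0 relative to the shared summits (0.05) and by the fold enrichment (0.54), and the cause was not tested. No direction among these 26 turned when a replicate was left out. The lists of 5564 best peaks and the ratios within files were also chosen after seeing the data. ELF3 was listed in 3 files of En-2, with the fewest tags, and in 1 of Col-0, with the most, and the part of depth in this was not tested.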
